A study of Mus musculus with 11 samples.

Results

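The genes described here are 38 mouse genes of RNA-binding proteins that direct splicing, stability or translation of transcripts in neurons. They were named by symbol from 13 families: Rbfox, Nova, Elavl, Celf, Ptbp, Mbnl, STAR (Khdrbs and Qk), Msi, Srrm, Pcbp, Rbms, Esrp and Fmr. All 38 were found among the 54752 genes of the count tables. RNA-seq was performed on thalamic neurons of 3 primary sensory nuclei of newborn mice: the dorsolateral geniculate nucleus (dLG, visual; 4 libraries), the ventral posteromedial nucleus (VPM, somatosensory; 4 libraries) and the ventral division of the medial geniculate nucleus (MGv, auditory; 3 libraries).

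Every library came from P0 mice (postnatal day 0) of the ICR/CD-1 strain that carried the alleles Gbx2CreER-IRES-EGFP/+ and R26lsl-tdTomato/+, and there was no group of another genotype, age or treatment. In this line a tamoxifen-dependent Cre recombinase is expressed from the Gbx2 locus, and cells that had the active recombinase, and their progeny, carry the red reporter; tamoxifen had been given before birth. Because Cre sits in the Gbx2 locus, all animals carried 1 engineered Gbx2 allele. Nuclei were dissected from vibratome slices, their cells were dissociated and the fluorescent ones were sorted, with tissue of 4 brains pooled for a library. Labels did not say whether libraries came from separate litters or days, so that p-values measure the spread between these pools.

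Total counts ranged from 10.2 to 23.6 M counts per library, and the MGv libraries were the shallowest (10.2 to 13.2 M). All 8 pan-neuronal and all 8 thalamic neuron markers examined had a mean above 1 CPM (counts per 1 M counts, scaled between libraries by TMM). Several libraries stood apart. Hspa8, a constitutive heat shock protein gene, lay at 3.05 to 5.56 CPM in dLG 2, VPM 3 and MGv 1 and at 159 to 581 CPM in the other 8. VPM 3 had 7% mitochondrial counts and was the lowest VPM library for 28 of the 36 members that could be tested. The share of all genes that were lowest there was not counted. The TMM factor of VPM 3 was 0.854, against 0.982 to 1.06 in the other libraries. Haemoglobin and other blood genes summed to 514 CPM in dLG 3 and to at most 11.7 CPM elsewhere, and reads of Y-linked genes were at or near 0 in 2 dLG libraries and 1 VPM library.

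RNA-binding regulators of this kind recognise short sequence motifs in transcripts and decide which exons are kept, how long the mRNA lasts and where it is translated. Many come as small families of paralogues with nearly the same motif, and developing neurons switch between paralogues, the textbook case being the replacement of Ptbp1 by Ptbp2 when progenitors become neurons. Neuronal exons controlled by these proteins are frequent in transcripts of ion channels, synaptic adhesion molecules and cytoskeletal proteins.

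All 3 nuclei expressed nearly the whole set. Counts of 36 members were high enough to be tested. The other two were Mbnl3, with 12 reads in all libraries together and at most 0.365 CPM, and Esrp1, with 3 reads and at most 0.0954 CPM. The floor of 3 reads used here corresponded to 0.129 to 0.292 CPM, and this floor covers counting error only, since PCR copies are not independent molecules. Esrp1 directs splicing in epithelia, and Mbnl3 is the muscleblind paralogue known from muscle and placenta.

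Levels of different genes were compared as CPM per kilobase of annotated exon. On this scale the highest members, as means over 11 libraries, were Celf4 (89.4), Rbfox1 (86.9), Elavl4 (70.8), Rbfox2 (67.9) and Elavl3 (58.1). Pcbp4 (50.1), Rbfox3 (30.5) and Elavl2 (27.4) followed. At the other end of the tested members stood Ptbp1 (1.16), Ptbp3 (1.11), Msi2 (0.86), Mbnl1 (0.852) and Rbms2 (0.29).

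**Figure D1:**
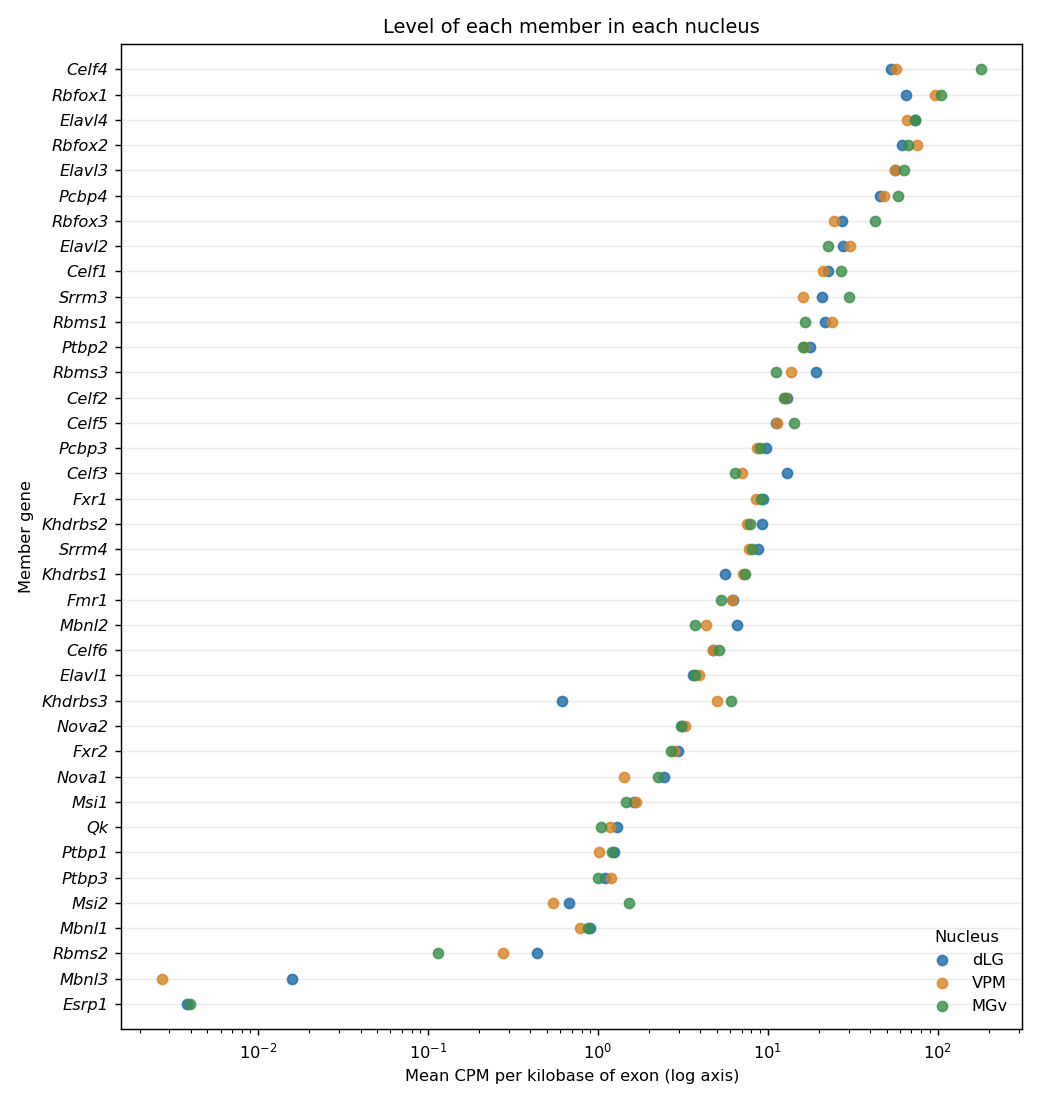
Mean level of each of the 38 members in dLG, VPM and MGv, in CPM per kilobase of exon on a log axis, ordered by the mean over 11 libraries. Points of most genes lie close together, whereas Khdrbs3 in dLG (0.61) lies far to the left of VPM (5.02) and MGv (6.07), and Celf4 in MGv (181) lies to the right of dLG (53.4) and VPM (56.9). Levels of 0 (Mbnl3 in MGv, Esrp1 in VPM) are not drawn.

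Nuclei were compared with edgeR's quasi-likelihood test over 15907 genes, and a gene was called at a Benjamini-Hochberg adjusted p under 0.1. In bulk samples, fewer cells that express a gene and less RNA per cell cannot be told apart. In total, 14 of 36 tested members (38.9%) differed in the test for any difference among nuclei, against 24.2% of all genes tested. The same 14 were called in at least 1 pairwise contrast, and 22 were called in none. Without VPM 3 the count of members was also 14, while that of all genes rose from 3847 to 4649. In the 8 libraries with high Hspa8 the count of members was 12, for which no count of all genes is given here. In the 8 libraries with reads of Y-linked genes, which left 2 dLG libraries, it was 7 of the members, with 1743 of all genes called in place of 3847. All genes tested, the background here and below, were not matched to the members in expression level. The members had been chosen with earlier results of these data known.

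Between dLG and VPM, 6 members were called (16.7%, background 10.7%). Celf3, Mbnl2, Nova1 and Rbms3 were higher in dLG (11.1%, background 4.97%), and Rbfox1 and Khdrbs3 were higher in VPM (5.56%, background 5.74%). Between dLG and MGv, 11 members were called (30.6%, background 16.1%). Of these, Celf3, Mbnl2, Rbms1, Rbms2 and Rbms3 were higher in dLG (13.9%, background 8.61%), and Rbfox1, Rbfox3, Celf4, Khdrbs3, Msi2 and Pcbp4 were higher in MGv (16.7%, background 7.49%). Between VPM and MGv, 7 members were called (19.4%, background 19%). Elavl2 and Rbms1 were higher in VPM (5.56%, background 10.4%), and Rbfox3, Nova1, Celf4, Msi2 and Srrm3 were higher in MGv (13.9%, background 8.56%).

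The median size of the log2 fold change over the 36 members, called or not, was 0.15 for dLG against VPM, 0.23 for dLG against MGv and 0.19 for the remaining pair. Over all genes tested these medians were 0.27, 0.32 and 0.36. The signed medians of the members, 0.08, 0.05 and -0.06 in the same order, lay near those of all genes, 0.00, 0.02 and 0.02. These contrasts share libraries and are not independent of each other.

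**Figure D2:**
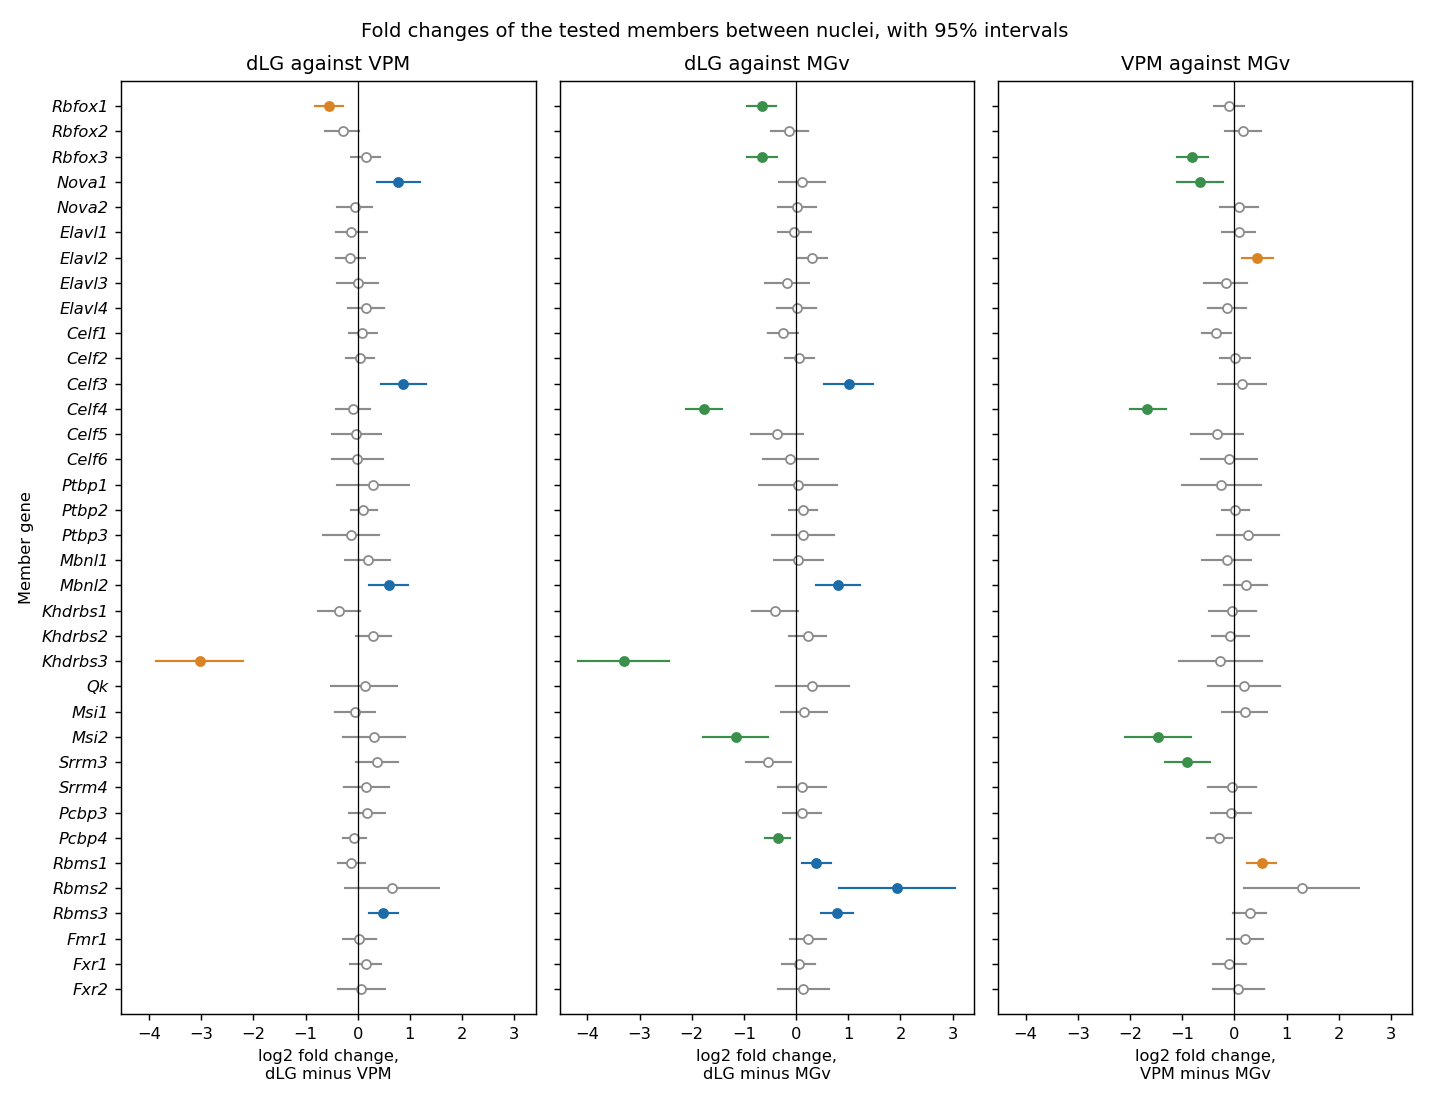
Log2 fold changes of the 36 tested members in the 3 contrasts, with 95% intervals from edgeR's fit. Filled points passed an adjusted p under 0.1 and take the colour of the nucleus that was higher (dLG blue, VPM orange, MGv green); open grey points did not pass. Khdrbs3 stands alone at -3.03 and -3.3 in the contrasts with dLG, and Celf4 at -1.76 and -1.67 in those with MGv.

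Among the members, the largest difference between nuclei was that of Khdrbs3, which encodes SLM2 (T-STAR), a KH-domain protein that controls alternative exons of neurexins. The gene lies on chromosome 15 at 68928420 to 69101211 of GRCm38, on the plus strand. It lay at 1.95, 4.08, 2.23 and 0.668 CPM in dLG 1 to 4 (32, 95, 41 and 14 reads). In VPM 1 to 4 it lay at 22.3, 19.6, 16.1 and 15.6 CPM, and in MGv 1 to 3 at 16.1, 26.9 and 23.7 CPM. Each dLG library was thus below every library of the other two nuclei, and VPM and MGv overlapped.

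Khdrbs3 was 8.15-fold lower in dLG than in VPM (log2 fold change -3.03 ± 0.39 SE, edgeR adjusted p = 0.00025). It was 9.84-fold lower than in MGv (-3.30 ± 0.40, edgeR adjusted p = 0.000122). The interval between VPM and MGv, -1.07 to 0.53, included 0. The highest dLG library, dLG 2, is also one of the libraries with low Hspa8. In the 8 libraries with high Hspa8 the log2 fold changes were -3.58 and -3.99. Without dLG 3, the library with blood transcripts, they were -3.02 and -3.30.

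Single markers from the lists of other cells were also lower in dLG than in both others. Aldoc, an astrocyte-enriched aldolase gene, lay at 2.1 to 11.8 CPM in dLG, 27.9 to 46.6 in VPM and 16.6 to 19.5 in MGv (edgeR adjusted p = 0.00103 and 0.0178). Mbp, the myelin basic protein gene, lay at 5.25 to 20.1 CPM in dLG, 25 to 30.7 in VPM and 62.4 to 71.5 in MGv (edgeR adjusted p = 0.0126 and 0.00018). Of the same list, Sox10 was at most 0.0476 CPM and Olig2 at most 0.389 CPM in any library, and Olig1 was not called. Kdr, an endothelial receptor gene, lay at 0 to 0.172 CPM in dLG, 1.3 to 2.92 in VPM and 0 to 1.14 in MGv (edgeR adjusted p = 0.005 and 0.0479). Of the markers tested in each list, these were 1 of 9 for astrocytes and radial glia, 1 of 3 for the oligodendrocyte lineage and 1 of 4 for vessels. Other markers of these lists went the other way. Vim was higher in dLG than in MGv (edgeR adjusted p = 0.0779). Pdgfrb had its highest mean in dLG (3.87 CPM, against 2.21 in VPM and 1.86 in MGv) but was not called. In these lists 0 markers were called higher in dLG than in both others. The part of Aldoc, Mbp and Kdr in the values of Khdrbs3 was not tested.

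Of the relatives of Khdrbs3, none passed in any contrast. Khdrbs1 (Sam68, expressed in most tissues) had mean CPM of 35.8 ± 11.5 (SD, n = 4) in dLG, 46 ± 5.56 (n = 4) in VPM and 47.3 ± 3.64 (n = 3) in MGv. These means stood in the same order as those of Khdrbs3, with log2 fold changes of -0.36 ± 0.19 against VPM and -0.40 ± 0.21 against MGv (edgeR adjusted p = 0.323 and 0.262). Khdrbs2 (SLM1), with 95.1 ± 14.2, 77 ± 5.39 and 81.3 ± 19, had its highest mean in dLG. Qk, the quaking gene best known for its part in myelinating glia, stayed between 8.99 and 25.3 CPM in all libraries. By CPM per kilobase, Khdrbs3 made up 0.965 to 7.45% of the summed STAR genes in dLG, 19.9 to 27.4% in VPM and 21.9 to 29.8% in MGv. Khdrbs2 held 46.6 to 62.4% in dLG and 30.8 to 39.4% in the libraries of the other two nuclei.

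**Figure D3:**
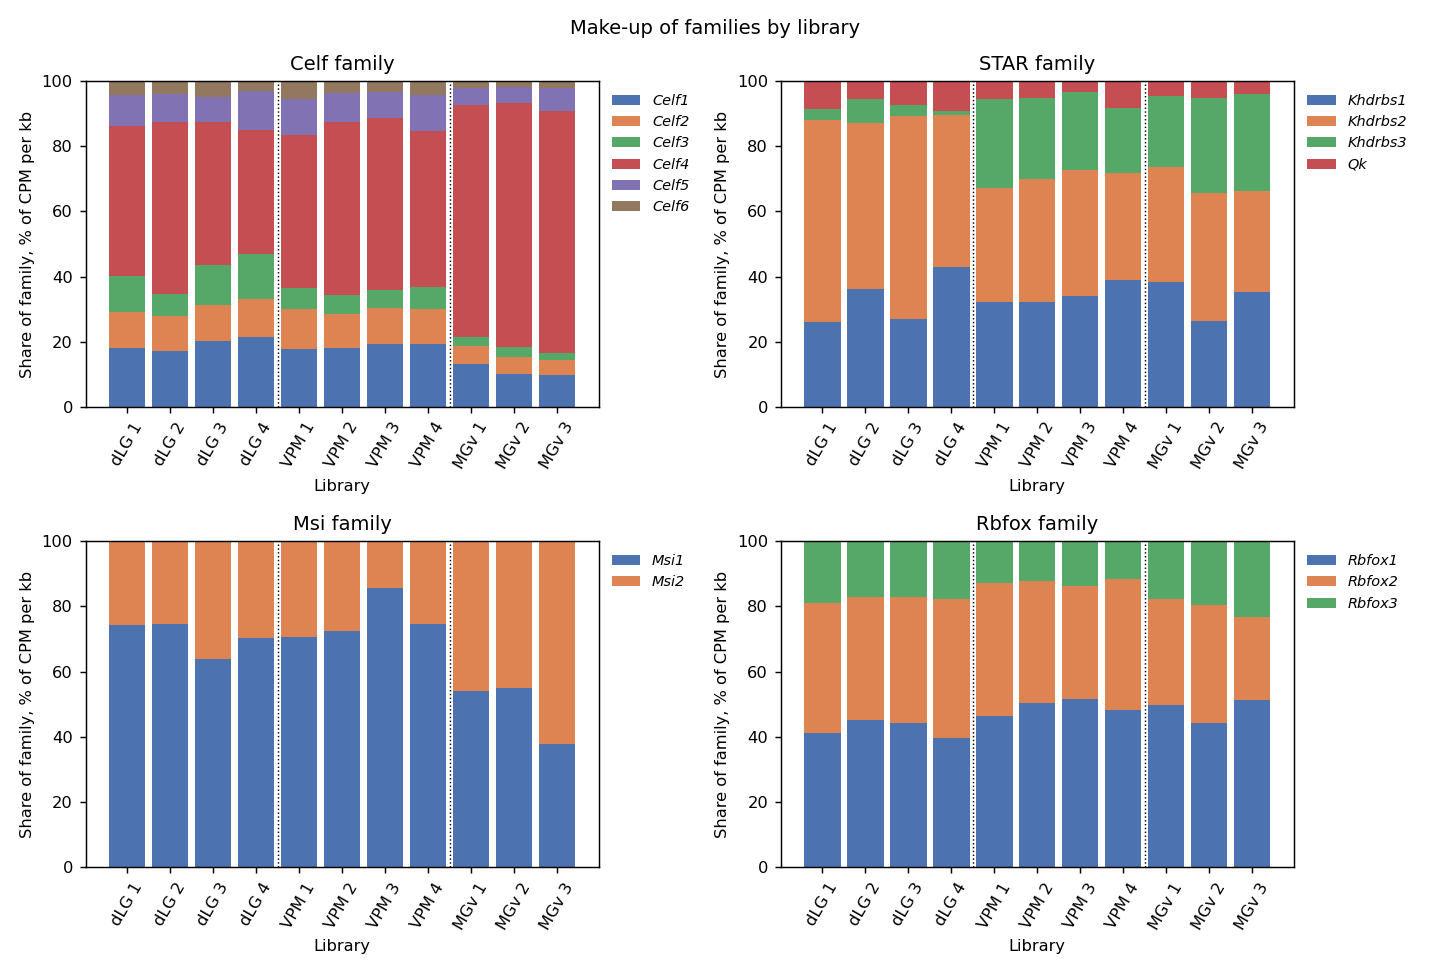
Share of each member in the summed CPM per kilobase of its family, in percent, as stacked bars for each of the 11 libraries; dotted lines part the nuclei. Khdrbs3 (green, STAR) is a thin band in dLG with a mean of 3.83% and takes 24% in VPM and 26.9% in MGv, Celf4 (red) takes 73.4% in MGv, and Msi2 (orange) takes 51% in MGv.

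Celf genes encode proteins that bind GU-rich elements and, in brain, control splicing and the stability of synaptic mRNAs. Celf4, whose loss in mice causes seizures, lay at 451, 575, 421 and 386 CPM in dLG 1 to 4 and at 465, 571, 412 and 505 CPM in VPM 1 to 4. In MGv 1 to 3 it lay at 1350, 1580 and 1730 CPM. All MGv libraries were above all others by more than the whole range within dLG or VPM. It was 3.38-fold higher in MGv than in dLG (log2 fold change -1.76 ± 0.16, edgeR adjusted p = 1.11e-05) and 3.18-fold higher than in VPM (-1.67 ± 0.16, adjusted p = 1.85e-05). Per kilobase, Celf4 made up 38 to 52.9% of the summed Celf genes in dLG libraries, 46.8 to 53% in VPM and 71.1 to 74.9% in MGv.

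Celf3, a brain-enriched paralogue, showed another order. It lay at 69.7, 46.4, 75.9 and 90.2 CPM in dLG 1 to 4, at 42.2, 38.8, 28.8 and 44 CPM in VPM 1 to 4 and at 32.3, 40.3 and 32.4 CPM in MGv 1 to 3. The dLG libraries were above all others, although dLG 2 exceeded VPM 4 only narrowly. It was 1.83-fold higher in dLG than in VPM (log2 fold change 0.87 ± 0.20, edgeR adjusted p = 0.0143) and 2.02-fold higher than in MGv (1.01 ± 0.22, adjusted p = 0.00702).

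The other 4 Celf genes passed in no contrast. Celf1 had the nearest values, with 175 to 213 CPM in dLG, 150 to 202 in VPM and 213 to 247 in MGv (VPM against MGv -0.35 ± 0.13, edgeR adjusted p = 0.102). Celf2 had a mean of 330 CPM and spanned 256 to 364, Celf5 a mean of 80 (49.4 to 127) and Celf6 a mean of 17.7 (10.7 to 23.9). Of the annotated exon bases of Celf2 and Celf5, 7.58% and 8.14% overlap a gene on the opposite strand, and the strand setting of the counting was not stated.

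Rbfox proteins bind GCAUG elements in introns that flank neuronal exons. Rbfox1 lay at 294, 330, 253 and 274 CPM in dLG 1 to 4, at 424, 444, 387 and 433 CPM in VPM 1 to 4 and at 505, 386 and 476 CPM in MGv 1 to 3. Every dLG library lay below the rest, and VPM and MGv overlapped. It was 1.47-fold lower in dLG than in VPM (log2 fold change -0.55 ± 0.12, edgeR adjusted p = 0.0143) and 1.58-fold lower than in MGv (-0.66 ± 0.13, adjusted p = 0.00447).

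Rbfox3 encodes NeuN, the nuclear antigen used to mark mature neurons. It lay at 179, 164, 129 and 161 CPM in dLG 1 to 4, at 155, 142, 134 and 138 CPM in VPM 1 to 4 and at 236, 227 and 285 CPM in MGv 1 to 3. All MGv libraries were above the rest, whereas dLG and VPM overlapped. It was 1.57-fold higher in MGv than in dLG (log2 fold change -0.65 ± 0.14, edgeR adjusted p = 0.00597) and 1.75-fold higher than in VPM (-0.81 ± 0.14, adjusted p = 0.00159). Rbfox2 did not pass: its mean was 500 ± 62.4 CPM (n = 4) in dLG, 611 ± 92.1 (n = 4) in VPM and 546 ± 93.8 (n = 3) in MGv. A gene used as a general neuronal marker therefore differed between MGv and the other nuclei by more than the spread of the libraries. Over the 26 alternative settings the Rbfox3 difference ranged from -0.72 to -0.40 for dLG against MGv. For VPM against MGv it ranged from -0.87 to -0.50, and both calls were kept throughout.

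Nova proteins bind clusters of YCAY elements and control exons of synaptic proteins. Nova1 lay at 18.6, 21.9, 21.5 and 23.8 CPM in dLG 1 to 4, at 12.2, 15.6, 8.19 and 14 CPM in VPM 1 to 4 and at 20.3, 18.8 and 20.4 CPM in MGv 1 to 3. Every VPM library lay below the rest, and dLG and MGv overlapped. It was 1.71-fold lower in VPM than in dLG (log2 fold change 0.78 ± 0.19, edgeR adjusted p = 0.0248) and 1.58-fold lower than in MGv (-0.66 ± 0.21, adjusted p = 0.051). In the 8 libraries with high Hspa8, which leave out VPM 3, the values were 0.62 and -0.51, and the contrast with MGv no longer passed (edgeR adjusted p = 0.115). That call was also lost without VPM 1, MGv 1 or MGv 3 (-0.64 to -0.63), and when every gene with a count was kept. Some immediate-early genes were low in VPM as well. Fos lay at 65.3 to 100 CPM there, at 165 to 296 in dLG and at 223 to 326 in MGv. Of the 9 markers tested for the response to dissociation, 4 were called in the test for any difference, Fos among them. The part of Fos in the values of Nova1 was not tested.

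Nova2, the paralogue prominent in cortex, stayed between 22.6 and 30.4 CPM in all libraries and passed in no contrast. An antisense gene, Gm26821, overlaps 31.68% of its exon bases, so reads of the pair may be mixed in these counts. By CPM per kilobase, Nova1 made up 40.9 to 48.1% of the pair in dLG, 25.3 to 36.4% in VPM and 39.1 to 44.9% in MGv.

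Elavl (Hu) proteins bind AU-rich elements and stabilise mRNAs of differentiating neurons, Elavl1 being the member found in most tissues. Elavl2 lay at 211, 216, 270 and 228 CPM in dLG 1 to 4, at 260, 296, 216 and 247 CPM in VPM 1 to 4 and at 176, 188 and 197 CPM in MGv 1 to 3. Every MGv library lay below the rest. The contrast of VPM with MGv passed (1.36-fold, log2 fold change 0.44 ± 0.14, edgeR adjusted p = 0.0501), and that of dLG with MGv did not (0.30 ± 0.14, adjusted p = 0.195). The call was lost without VPM 2 (0.36), MGv 1 (0.41) or MGv 2 (0.45), and with scaling by total counts in place of TMM. Elavl3 (mean 400 CPM), Elavl4 (381 CPM) and Elavl1 (38.9 CPM) passed in no contrast. Elavl3 in MGv 3, at 607 CPM, exceeded all other libraries (318 to 464 CPM).

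Muscleblind proteins are the splicing factors sequestered by expanded repeats in myotonic dystrophy and often act on the same exons as Celf proteins. Mbnl2, the main brain paralogue, lay at 93.8, 55.8, 75.9 and 89.3 CPM in dLG 1 to 4, at 55, 40.1, 50.2 and 63.2 CPM in VPM 1 to 4 and at 44.1, 48.9 and 41.6 CPM in MGv 1 to 3. In all, 3 of the dLG libraries were above all others, and dLG 2 lay within the VPM range. It was 1.51-fold higher in dLG than in VPM (log2 fold change 0.59 ± 0.18, edgeR adjusted p = 0.0589) and 1.75-fold higher than in MGv (0.81 ± 0.20, adjusted p = 0.0142). The call against VPM was lost when dLG 1, dLG 3, dLG 4, VPM 1 or VPM 2 was left out (0.49 to 0.61). Mbnl1 had means of 16.8 ± 0.656, 14.7 ± 3.94 and 16.4 ± 1.46 CPM in dLG, VPM and MGv and passed in no contrast. Per kilobase, Mbnl2 held 78.3 to 89.8% of the family in all 11 libraries.

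Polypyrimidine tract-binding proteins repress neuronal exons, Ptbp1 in progenitors and most other tissues, and Ptbp2 in young neurons. Ptbp2 was present at 151 to 177 CPM in dLG, 136 to 160 in VPM and 139 to 163 in MGv. Ptbp1 lay between 3.1 and 9.07 CPM and Ptbp3 between 4.3 and 10.8 CPM. Ptbp2 made up 84.2 to 91.4% of the family per kilobase, and its level per kilobase was 8.58 to 26.5 times that of Ptbp1 in the same library. None of the 3 passed in any contrast, and the 95% interval of Ptbp2 between dLG and VPM was -0.13 to 0.36 on the log2 scale. For Ptbp1, 20.74% of exon bases overlap genes on the opposite strand.

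Musashi proteins regulate translation and are known from neural progenitors. Msi2 lay at 5.6, 6.1, 9.32 and 7.25 CPM in dLG 1 to 4, at 7.14, 6.06, 2.92 and 6.61 CPM in VPM 1 to 4 and at 14.1, 14.2 and 19.1 CPM in MGv 1 to 3. All MGv libraries exceeded the rest, and VPM 3 was the lowest of all. It was 2.23-fold higher in MGv than in dLG (log2 fold change -1.16 ± 0.29, edgeR adjusted p = 0.0179) and 2.77-fold higher than in VPM (-1.47 ± 0.29, adjusted p = 0.00475). Without VPM 3 the difference from VPM was -1.26.

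Msi1, the other paralogue, lay between 6.51 and 10.9 CPM in all libraries and passed in no contrast. The share of Msi2 in the pair, per kilobase, was 25.4 to 36.2% in dLG, 14.4 to 29.3% in VPM and 45.1 to 62.1% in MGv. Msi2 lies on chromosome 11 at 88339382 to 88718513, on the minus strand of GRCm38.

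Srrm3 and Srrm4 promote inclusion of neuronal microexons. Srrm3 lay at 135, 99.2, 150 and 147 CPM in dLG 1 to 4, at 104, 104, 70.8 and 132 CPM in VPM 1 to 4 and at 165, 189 and 222 CPM in MGv 1 to 3. Every MGv library lay above the rest, and dLG and VPM overlapped. It was 1.86-fold higher in MGv than in VPM (log2 fold change -0.90 ± 0.20, edgeR adjusted p = 0.00922), and the difference from dLG did not pass (-0.53 ± 0.20, adjusted p = 0.111). Over the 26 alternative settings the difference between VPM and MGv ranged from -1.04 to -0.62, and the call was kept. Srrm4 had means of 75.5 ± 8.19, 67.3 ± 21.1 and 69.8 ± 6.99 CPM in dLG, VPM and MGv. It passed in no contrast.

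Poly(C)-binding proteins act on stability and translation of mRNA. Pcbp4 lay at 183, 204, 194 and 203 CPM in dLG 1 to 4, at 202, 197, 205 and 216 CPM in VPM 1 to 4 and at 269, 258 and 223 CPM in MGv 1 to 3. Every MGv library lay above the rest. It was 1.28-fold higher in MGv than in dLG (log2 fold change -0.35 ± 0.11, edgeR adjusted p = 0.0618), and the contrast with VPM did not pass (-0.29 ± 0.11, adjusted p = 0.117). The call against dLG was lost once GC content and exon length were fitted per library (-0.11, adjusted p = 0.627 by edgeR). It was also lost without dLG 1, dLG 3, MGv 1 or MGv 2 (-0.35 to -0.30). Scaling by total counts in place of TMM, or keeping every gene with a count, lost it as well. Pcbp3 lay between 21.5 and 31.9 CPM in all libraries and passed in no contrast.

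All 3 Rbms genes, which encode single-stranded nucleic acid-binding proteins, differed between dLG and MGv, and each was lower in MGv. Rbms3 lay at 213, 212, 190 and 187 CPM in dLG 1 to 4, at 161, 157, 114 and 140 CPM in VPM 1 to 4 and at 103, 117 and 130 CPM in MGv 1 to 3. Every dLG library was above all others. It was 1.40-fold higher in dLG than in VPM (log2 fold change 0.49 ± 0.13, edgeR adjusted p = 0.0374) and 1.72-fold higher than in MGv (0.78 ± 0.15, adjusted p = 0.00278). The call against VPM was lost without dLG 1 (0.45).

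Rbms1 lay at 115, 117, 111 and 135 CPM in dLG 1 to 4, at 135, 131, 111 and 143 CPM in VPM 1 to 4 and at 92.6, 95.5 and 84.6 CPM in MGv 1 to 3. Every MGv library lay below the rest, and dLG and VPM overlapped. It was 1.31-fold lower in MGv than in dLG (log2 fold change 0.39 ± 0.13, edgeR adjusted p = 0.0677) and 1.43-fold lower than in VPM (0.52 ± 0.13, adjusted p = 0.0189). The call against dLG was lost when any MGv library, dLG 1 or dLG 4 was left out (0.33 to 0.43). Scaling by total counts in place of TMM, or keeping every gene with a count, lost it as well.

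Rbms2 was low in all 3 nuclei and near the limit of detection in MGv. It lay at 2.01, 1.98, 2.07 and 1.77 CPM in dLG 1 to 4, at 1.02, 1.34, 1.12 and 1.47 CPM in VPM 1 to 4 and at 0.225, 0.351 and 0.972 CPM in MGv 1 to 3, the last being 3, 4 and 10 reads. The 3 nuclei did not overlap. The fitted difference between dLG and MGv was 3.84-fold (log2 fold change 1.94 ± 0.52, edgeR adjusted p = 0.0247, 95% interval 0.83 to 3.05), and the other two contrasts did not pass. Without MGv 3, the MGv library with 10 reads, the log2 fold change was 2.74. In the 8 libraries with high Hspa8 it was 1.55 and no longer passed.

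Fmr1 and its paralogues Fxr1 and Fxr2 encode repressors of translation that travel with neuronal mRNA. Fmr1 lay between 42 and 65.1 CPM in all libraries, Fxr1 between 45.3 and 69.5 and Fxr2 between 8.16 and 14.3. None passed in any contrast. Fxr1 made up 45.8 to 57.7% of the 3 per kilobase, Fmr1 28.5 to 39.9% and Fxr2 13 to 19.2%.

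**Figure D4:**
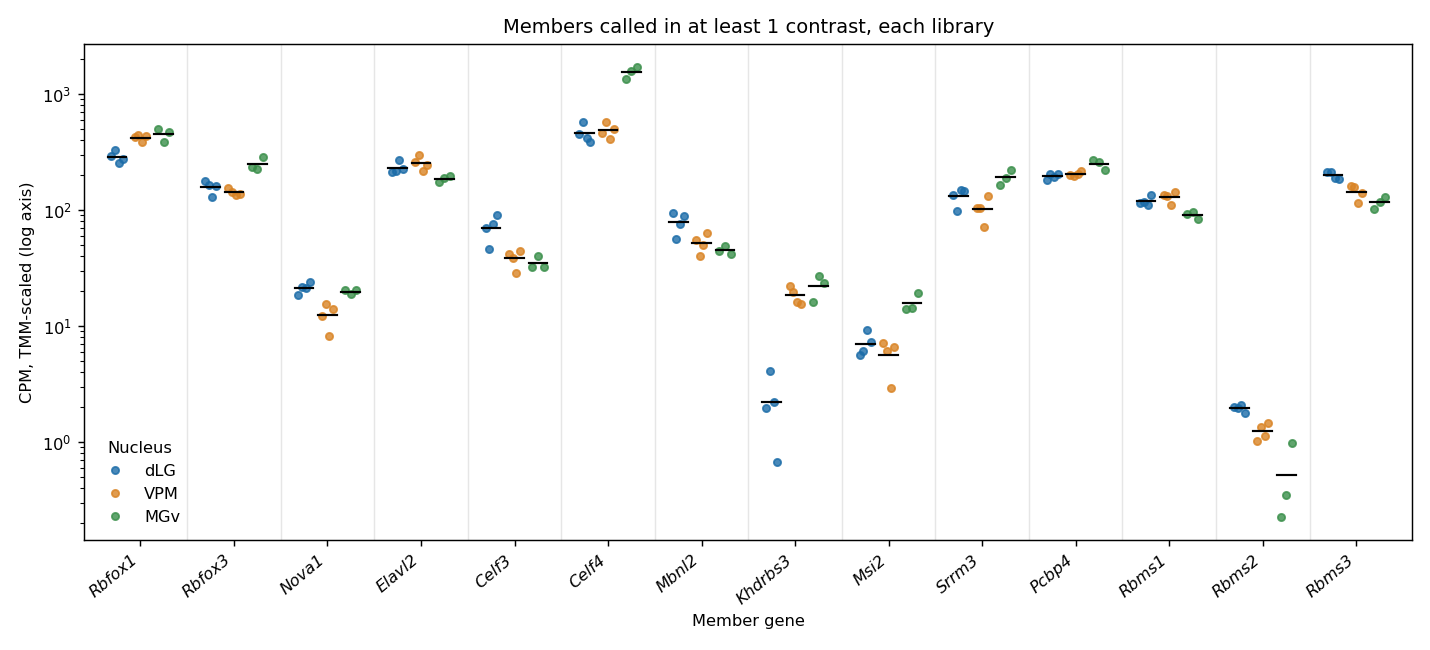
CPM of the 14 members called in at least 1 contrast, on a log axis; each point is a library and each bar the mean of a nucleus (dLG 4, VPM 4, MGv 3 libraries). Khdrbs3 at 0.668 to 4.08 CPM in dLG and Celf4 at 1350 to 1730 CPM in MGv lie farthest from the other nuclei.

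Several members set 1 nucleus apart from both others. Celf3, Mbnl2 and Rbms3 were higher in dLG than in both others (8.33% of members tested, background 2.04%), and Rbfox1 and Khdrbs3 were lower (5.56%, background 2.18%). Rbfox3, Celf4 and Msi2 were higher in MGv than in both others (8.33%, background 3.66%), and Rbms1 was lower (2.78%, background 5.22%). Nova1 was lower in VPM than in both others (2.78%, background 1.97%). By edgeR, 0 members were higher in VPM than in both others (background 2.41%). The count was also 0 at an unadjusted p under 0.05 and with DESeq2, and it was 1 with limma voom. With these few members, the shares rest on 1 to 3 genes each.

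The upstream sequences of the 3 members higher in dLG than in both others are printed below as examples. RefSeq promoter sequences of GRCm38.p6 were matched by symbol for 29 of the 38 members, and the 250 bases before the outermost start that RefSeq lists there for each gene were read. In 4 of them, Celf2, Ptbp2, Rbfox3 and Srrm3, this start lies over 1 kb inside the gene of the GENCODE annotation. Capitals mark a GC box (GGGCGG or its complement CCGCCC) or a TATA motif (TATAAA or its complement TTTATA), and the sequences run 5′ to 3′ on the strand of the gene.
Celf3: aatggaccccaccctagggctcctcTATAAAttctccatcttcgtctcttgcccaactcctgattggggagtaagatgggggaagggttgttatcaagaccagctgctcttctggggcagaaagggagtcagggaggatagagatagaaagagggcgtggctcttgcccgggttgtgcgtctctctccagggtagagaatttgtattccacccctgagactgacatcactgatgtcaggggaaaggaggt
Mbnl2: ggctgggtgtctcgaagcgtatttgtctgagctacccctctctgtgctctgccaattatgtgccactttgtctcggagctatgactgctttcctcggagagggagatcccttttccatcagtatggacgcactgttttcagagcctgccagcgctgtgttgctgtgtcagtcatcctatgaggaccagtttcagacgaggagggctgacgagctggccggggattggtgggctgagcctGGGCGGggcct
Rbms3: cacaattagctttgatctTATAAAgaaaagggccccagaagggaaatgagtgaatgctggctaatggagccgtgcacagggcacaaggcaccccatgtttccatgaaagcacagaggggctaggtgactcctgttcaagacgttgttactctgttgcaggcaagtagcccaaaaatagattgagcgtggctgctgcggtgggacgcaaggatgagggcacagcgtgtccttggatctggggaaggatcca
The windows are chr3:94478045-94478294 (plus strand), chr14:120275419-120275668 (plus strand) and chr9:117629914-117630163 (minus strand) in the order printed, and each ends at the base before the annotated start of the gene. The windows of Celf3 and Rbms3 hold the TATA motif and no GC box, and that of Mbnl2 holds 1 GC box and no TATA motif. In Celf3 and Rbms3 the TATA motif lies near the 5′ end of the window, far from the annotated start. Over all 27025 symbols, 33% of windows hold the GC box and 13% the TATA motif; of the 29 member windows 14 (48.3%) and 5 (17.2%) do, and of the 25 within 1 kb of the GENCODE start 13 (52%) and 4 (16%). The median GC content was 61.6% in member windows and 52% in all. A match is a description of these letters and says nothing of binding.

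Markers of other cells were read beside the MGv differences. Mbp was higher in MGv than in both others (edgeR adjusted p = 0.00018 and 0.0281). The 6 oligodendrocyte lineage markers read here summed to 65.3 to 74.5 CPM in MGv, 7.92 to 22 in dLG and 27 to 35.5 in VPM, and 1 of the 3 that could be tested, Mbp, was called in the test for any difference. Of the lineage-defining genes, Olig2 and Sox10 were at 0 in every MGv library and Sox10 also in every dLG library, whereas Olig1 lay at 1.46 to 2.9 CPM in MGv, 0.852 to 2.45 in dLG and 1.05 to 3.85 in VPM and was not called. Slc1a3, an astrocyte transporter, lay at 45.5 to 90.3 CPM in MGv against 1.1 to 17.9 in dLG and 3.23 to 10.3 in VPM. Vim, the vimentin gene of radial glia, was instead lower in MGv than in both others, at 25 to 41.1 CPM against 32.9 to 67 in dLG and 38.4 to 62.4 in VPM (edgeR adjusted p = 0.0779 and 0.0556). The 10 astrocyte and radial glia markers together overlapped between nuclei (101 to 212 CPM in dLG, 147 to 216 in VPM, 107 to 238 in MGv), and Gfap was at most 0.0865 CPM in any library.

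Many neuronal marker genes also moved with MGv. Of the 8 thalamic neuron markers tested, 3 (Tcf7l2, Gbx2 and Lhx2) were higher in MGv than in both others and 4 (Lef1, Lhx9, Slc17a6 and Prox1) were lower, and all 8 were called in the test for any difference. Tcf7l2 lay at 1070 to 1290 CPM in MGv, 382 to 696 in dLG and 468 to 563 in VPM. Prox1 lay at 4.08 to 13.1 CPM in MGv, 47.3 to 95.1 in dLG and 109 to 165 in VPM. Gbx2, the gene whose locus drives Cre, lay at 272 to 333 CPM in MGv, 14.2 to 51.6 in dLG and 27.3 to 45.7 in VPM. Nefm, a neurofilament gene and 1 of the 8 pan-neuronal markers tested, was lower in MGv than in both others, at 254 to 327 CPM, against 491 to 1110 in dLG and 816 to 1480 in VPM. The part of these differences in those of Celf4, Rbfox3, Msi2, Srrm3 and Pcbp4 was not tested.

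Other RNA-binding genes were read from lists of SR proteins (13 genes), hnRNP proteins (22) and further RNA-binding regulators (44), of which 73 of 79 could be tested. Of these 73, 7 (9.59%, background 10.7%) differed between dLG and VPM. For dLG with MGv the count was 5 (6.85%, background 16.1%) and for VPM with MGv it was 10 (13.7%, background 19%). Their median size of the log2 fold change was 0.19, 0.19 and 0.20 in the same order. The called share of these genes lay near the background between dLG and VPM and below it in the contrasts with MGv.

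Among the SR proteins, 1 of 13 (7.69%) was called in each contrast, below the backgrounds of 10.7%, 16.1% and 19%. Srsf10 was higher in dLG (mean 171 CPM) than in VPM (111; log2 fold change 0.62 ± 0.16, edgeR adjusted p = 0.0311). Srsf2 was lower in dLG (93.1) than in MGv (154; -0.73 ± 0.26, edgeR adjusted p = 0.094), with dLG and MGv libraries overlapping, and Srsf4 was lower in VPM (55.5) than in MGv (77.8; -0.49 ± 0.16, adjusted p = 0.0552). Among the 22 hnRNP proteins, Hnrnpdl was lower in VPM (387) than in dLG (505) and MGv (516), and Hnrnpr was lower in VPM (160) than in MGv (207). Between dLG and MGv, edgeR called 0 hnRNP genes (background 16.1%). In that contrast 2 had an unadjusted p under 0.05, and DESeq2 and limma voom each called 2.

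Of the 38 further regulators tested, 5 were called in the contrast of dLG and VPM (13.2%, background 10.7%). In that of dLG and MGv 4 were called (10.5%, background 16.1%), and in the remaining contrast 7 (18.4%, background 19%). Rbm20, a splicing factor best known from titin in heart, lay at 2.23 to 5.18 CPM in dLG, 0.346 to 1.34 in VPM and 0 to 0.676 in MGv and was higher in dLG than in both others (edgeR adjusted p = 0.049 and 0.00487). Igf2bp1, an oncofoetal mRNA-binding protein, was higher in dLG (mean 5.28 CPM) than in MGv (1.52; log2 fold change 1.80 ± 0.57, edgeR adjusted p = 0.0578). Raver2, a partner of polypyrimidine tract-binding proteins, was higher in VPM (6.33) than in MGv (2.16; 1.54 ± 0.38, edgeR adjusted p = 0.0176).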

How the data were processed

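RNA-seq counts of 11 libraries (dLG 4, VPM 4, MGv 3) were used as deposited. Per the labels and the methods of the study, the authors amplified cDNA with a SMARTer kit, sequenced single-end reads of 50 bases, trimmed them (Trim Galore 0.6.1, cutadapt 2.3), aligned them with STAR 2.7.0d to GRCm38 (mm10) and counted reads per gene (Ensembl release 95) with featureCounts (Subread 1.6.4). The deposited values are whole-number counts per gene, not normalized, with replicates not pooled. Strand and multimapping settings are not given in the sources used here. Without strand, reads of overlapping antisense genes cannot be told apart, so large exon overlaps are given.

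Groups and replicate numbers came from sample titles. Symbols, positions (1-based), exon lengths and overlaps came from GENCODE M21 (GRCm38), a later release, which held 54723 of 54752 identifiers. The members and lists were chosen with earlier results of these data known. Genes were kept by filterByExpr (15907 of 33170 with a count), scaled by TMM and tested, two-sided, with glmQLFit and glmQLFTest (edgeR 4.0.16, R 4.3.3) in a model of 3 group means over all 11 libraries, with Benjamini-Hochberg adjustment over all genes tested and a threshold of 0.1, the threshold of the study. The common biological coefficient of variation was 28.2%. Standard errors were obtained by dividing the size of the log2 fold change by √F of its test, and 95% intervals use the t distribution with the degrees of freedom of the fit. CPM are TMM-scaled.

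All members are accounted for. Those called in at least 1 pairwise contrast are given in every library, those under 1 CPM in every library as low, and for each related list the 3 called genes with the largest fold change are named; Fos, Hspa8, Nefm, Mbp, Slc1a3, Aldoc, Vim, Olig1, Kdr and the thalamic neuron genes given are among 13 marker lists and were picked after their values were seen. A further marker is not reported here. Markers of microglia, vessels, epithelium, dividing cells, GABAergic and cortical neurons gave summed levels of at most 32.9 CPM in any library. The models were tested on simulated data. Replicate pairs differed by more than sampling noise (chi-square per degree of freedom 12.8 to 115), so each library counted as 1 sample. Results were recomputed with DESeq2 1.42.0 or with limma 3.58.1 (voom and library quality weights), with other scalings and filters, offsets for GC content and exon length, thinning to the smallest total, the replicate block, a stricter threshold, only the nuclei compared, low-Hspa8 libraries as a covariate or left out, and each library left out.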

Additional observations from a re-analysis of the deposited data

Results flagged for a closer look

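Mbnl1 in VPM 3, at 8.87 CPM, was far below the other VPM libraries (16.2 to 17.4 CPM). The gap exceeded Dixon's 95% critical value for 4 samples (0.829), the only such case in 72 sets of 4 libraries (36 members in dLG and in VPM), where chance flags about 1 in 20. VPM 3 was the lowest VPM library for 28 of the 36 tested members, and the share over all genes was not counted.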

How the results depend on the processing

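All 24 called differences of members kept their sign under each of the 26 alternative settings that gave a value, and 17 were called under all of them but the use of libraries with Y-linked reads alone. With limma voom, 11 members were called between dLG and VPM, in place of 6. All genes called in that contrast rose from 1704 to 4414, relatively more than the members. Between VPM and MGv voom called 11 members, in place of 7, for which no count of all genes is given here. For any difference it called 6181 genes, in place of 3847. The 8 libraries with high Hspa8 gave 2618 genes between dLG and VPM. Leaving out single libraries gave 1093 (without VPM 2) to 2223 (without VPM 3) genes in this contrast. The use of libraries with Y-linked reads alone, chosen after seeing the data, left 2 dLG, 3 VPM and 3 MGv libraries and called 1, 5 and 5 members and 383, 988 and 1860 genes in the contrasts dLG against VPM, dLG against MGv and MGv against VPM, and 7 members and 1743 genes for any difference; 11 of the 24 differences were called there and under all other settings. Apart from the smaller numbers of libraries, the causes were not tested. With the replicate block, 6, 12 and 8 members were called, and Rbms1 between dLG and MGv was lost (edgeR adjusted p = 0.121). Counts of all genes with the block are not given here, so these member counts cannot be set against a background. The mean correlation of deviations was 0.016 over 10 same-numbered pairs (highest 0.48, dLG 4 with VPM 4) and -0.005 over 30 others; the numbers were not taken as pairing, and whether some libraries shared a litter or day is not known. Depth limits Rbms2, Mbnl3 and Esrp1, which had 3 to 10, 0 and 0 to 1 reads in the MGv libraries.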
